A study of Mus musculus with 2 samples.

Results

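Transcripts of 10 genes that present antigen on major histocompatibility complex (MHC) class II molecules were counted in GFP+ cells of denervated muscle. The genes were taken by name, and all 10 were among the 32287 features of the matrix. They were H2-Aa, H2-Ab1, H2-Eb1, Cd74, H2-DMa, H2-DMb1, H2-DMb2, H2-Oa, H2-Ob and Ciita. Tibialis anterior and gastrocnemius muscle had been taken 7 days after a crush of the sciatic nerve from S100GFPtg males, 2 months old and labelled WT, and viable cells had been sorted by green fluorescence. The transgene drives EGFP from the S100B promoter, so the sort selected on that reporter. The GFP+ fraction was sequenced as 1 droplet library, which reads the 3' end of each transcript. According to the methods males were pooled, whereas the series description mentions a single crushed mouse, so how many animals it represents is uncertain. The GFP- counts were not used here.

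Class II molecules carry peptides from endocytosed protein to CD4+ T cells. H2-Aa and H2-Ab1 encode the alpha and beta chain of I-A, and H2-Eb1 the beta chain of I-E. Cd74, the invariant chain, blocks the peptide groove and guides new class II to endosomes, where H2-DM exchanges its remnant for other peptides and H2-O restrains H2-DM. Ciita is the transactivator that binds the RFX, CREB and NF-Y factors on the promoters of this family. Dendritic cells and B cells are known for constitutive class II, and macrophages for class II that depends on their state.

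The library held 36400 barcodes. Only the 8894 with at least 5000 UMIs (unique molecular identifiers, one for each captured transcript) were used, and 8701 of them passed filters on genes and mitochondrial counts, with a median of 11624 UMIs. Marker UMIs placed 7006 of them (80.5%) in a class, and no gene of the 10 took part in a gate. Conventional dendritic cells were gated as cDC1 (192 barcodes, Xcr1 and Clec9a among the markers), cDC2 (205, Cd209a and Flt3) and mature dendritic cells (19, Ccr7 and Ccl22). Macrophages, gated on C1qa, C1qb and other genes, numbered 3992. Of these 2115 also carried a resident list (Lyve1, Folr2, Cd163 and others), 126 a lipid list (Gpnmb, Fabp5, Spp1 and others), 3 both lists, and 1748 neither, here called C1q-only. Monocytes numbered 287 and fibroblasts 1298. Barcodes that passed both the monocyte and the macrophage gate, with scores within 2-fold of each other, formed an intermediate class of 51. The mature dendritic class is 1 barcode below the minimum of 20 set for levels, and its values rest on few molecules. The B gate took 0 barcodes, the plasmacytoid gate 4 and the T and NK gate 11. A further 1048 leukocyte barcodes failed the gate for which they scored highest and were left without a class. Levels are given as CPM, UMIs of a gene per 1000000 UMIs of a class. Tags at the 3' end count molecules, so CPM is not scaled to gene length. The 95% intervals are exact (Poisson for CPM, conditional for log2 ratios, Clopper-Pearson for shares) and hold for counting error alone. A single library leaves no replicate, and no test or p-value is given. In each comparison, genes at 10 CPM or more in either class were counted when they differed by over 2-fold.

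In RefSeq (GRCm38.p6), 8 of the 10 genes lie on chromosome 17 between the start of H2-Oa at 34092379 and the end of H2-Eb1 at 34316674. H2-Aa spans chr17:34282744-34287823, H2-Ab1 chr17:34263227-34269418 and H2-DMb1 chr17:34153191-34160229. Ciita lies at chr16:10480014-10531064. GRCm38 and GRCm39 are both given as the genome in the study's methods. Promoter windows of 300 bases, 250 before to 50 after a start site, were found for 7 of the genes. They are shown because the promoters of this family share an X box and a Y box, to which the RFX and NF-Y factors bind. Windows were searched on both strands for GCAAC, found in many X boxes, followed by ATTGG, the core of the Y box on this strand, with 25 to 40 bases from start to start. A second pair, AACNGATG followed by ATTGG at the same distance, was searched in the same way. GCAAC and AACNGATG can overlap by their AAC. Both pairs were chosen after the sequences were read. The first occurred in 4 of the 8 windows of these genes and in 0.794% of 32851 RefSeq windows, and the second in 3 of the 8 and in 0.0183% of all. The stretches around the pairs follow, on the strand of the gene, with both motifs in capitals.

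H2-Aa, chr17:34287855-34287916, minus strand: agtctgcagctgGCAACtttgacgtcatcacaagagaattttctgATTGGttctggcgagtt
H2-Eb1, chr17:34305764-34305824, plus strand: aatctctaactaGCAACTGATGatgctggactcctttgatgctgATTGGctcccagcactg
H2-DMb1, chr17:34153087-34153146, plus strand: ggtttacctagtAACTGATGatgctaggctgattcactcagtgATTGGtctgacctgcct
H2-DMb2, chr17:34145116-34145175, plus strand: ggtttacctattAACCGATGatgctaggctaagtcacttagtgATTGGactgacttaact
H2-Oa, chr17:34092291-34092352, plus strand: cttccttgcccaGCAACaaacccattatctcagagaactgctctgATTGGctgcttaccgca
H2-Ob, chr17:34238806-34238864, plus strand: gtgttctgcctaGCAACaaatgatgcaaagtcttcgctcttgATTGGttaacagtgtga

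The 2 windows of H2-DMa held neither pair on the strand of the gene. A match is a description of the letters, and binding was not measured here. H2-DMb1 and H2-DMb2 lie side by side and have similar stretches, and their levels differed unequally between dendritic classes, as given with those classes.

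The 4 genes with the most molecules were Cd74 (chr18:60803849-60812652), H2-Aa, H2-Eb1 and H2-Ab1, and dendritic cells held the highest levels of each. H2-Aa stood at 9683 CPM in cDC2, 9126 in cDC1 and 7802 in mature dendritic cells. In C1q-only, resident and lipid macrophages it stood at 3798, 1290 and 1237 CPM, in monocytes at 1158 and in fibroblasts at 97.8. Cd74 followed the same order at the top, with 21630 CPM in cDC2, 17733 in cDC1, 8607 in C1q-only macrophages and 213 in fibroblasts. Added up, H2-Aa, H2-Ab1, H2-Eb1 and Cd74 (the class II sum) came to 48068 CPM in cDC2 and 42355 in cDC1. The sum was 18077 in C1q-only, 6098 in resident and 5827 in lipid macrophages and 5918 in monocytes. Between C1q-only and resident macrophages stood the intermediate class at 11238 CPM and muscle fibres at 6351. Among the 16 classes of at least 20 barcodes, neighbours in the order of the class II sum had overlapping intervals in 4 pairs, one of them monocytes and lipid macrophages. Per barcode, the class II sum took up to 12.6% of all UMIs in a cDC2. Conventional and mature dendritic cells were 4.78% of the deep barcodes and held 25.3% of the class II UMIs, and macrophages, 45.9% of the barcodes, held 45.1%.

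**Figure D1:**
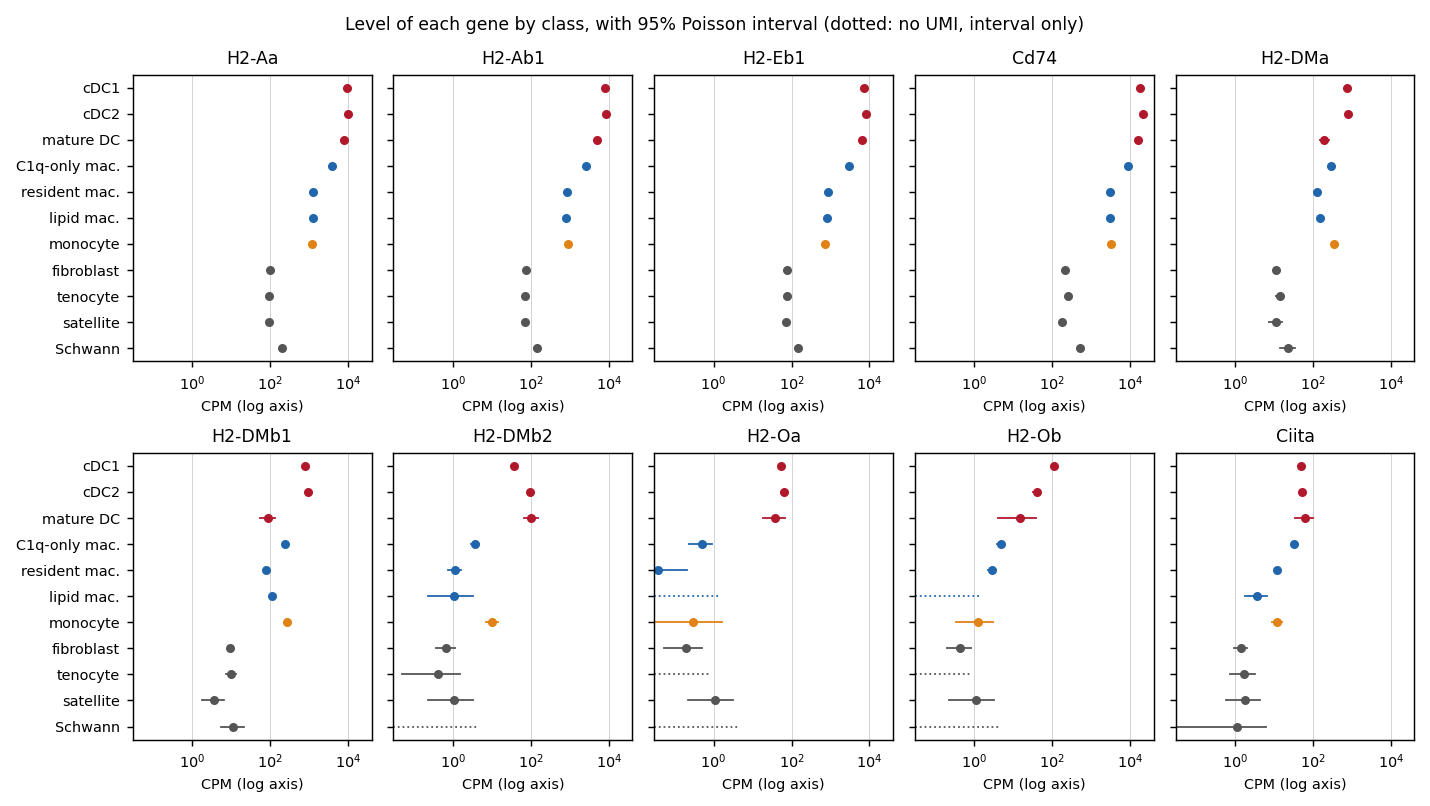
Each panel gives the level of 1 gene in CPM (log axis) in 11 classes, as a point with its 95% Poisson interval; red marks dendritic cells, blue macrophages, orange monocytes and grey non-myeloid classes. The chains and Cd74 step down from dendritic cells to C1q-only macrophages and then to the other macrophages and monocytes, while H2-DMb2, H2-Oa and H2-Ob stand out in dendritic cells, with H2-Oa at 64.4 CPM in cDC2 and 0.498 in C1q-only macrophages.

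The 7 genes at 10 CPM or more in both classes were over 2-fold higher in cDC2 than in macrophages, where 7.91% of 8167 genes were over 2-fold higher and 19% lower. H2-DMb2, H2-Oa and H2-Ob, also over 2-fold higher, reached 10 CPM only in cDC2 and entered through the class where they are high. The class II sum was 4.39-fold higher in cDC2 (log2 ratio 2.14, 2.13 to 2.14). The peptide exchanger H2-DM gave 1854 CPM over its 3 genes in cDC2 and 343 in macrophages, a 5.40-fold difference. H2-Oa, the alpha chain of H2-O, had 190 UMIs among 205 cDC2 and 11 among 3992 macrophages, a log2 ratio of 8.18 (7.31 to 9.21). Ciita differed least, at 53.5 against 20.3 CPM (log2 ratio 1.40, 1.15 to 1.64). Of the genes in lists of related function, the largest differences were in Dpp4 (log2 ratio 5.63), Itgax (4.49) and Zbtb46 (3.23), all from the dendritic check list. Not all of the pathway followed the chains. Of 7 genes of antigen processing, 3 were over 2-fold lower in cDC2 and 1 higher. The lower ones, named after their values were seen, were the lysosomal proteases Lgmn (197 against 1200 CPM), Ctsb (583 against 3213) and Ctsl (146 against 677).

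Shares of barcodes with a UMI were also higher in conventional dendritic cells than in macrophages for H2-Oa, H2-Ob and H2-DMb2, and closer for Ciita. After each barcode was thinned to 5000 UMIs, H2-Oa was seen in 23.4% of cDC2 (17.8 to 29.8) and 23.4% of cDC1, against 0.286% of C1q-only and 0 of 2115 resident macrophages, with an upper bound of 0.174%. In fibroblasts, which are not known to use the gene, the thinned share was 0% with an upper bound of 0.284%. Without thinning the H2-Oa shares were 37.1% in cDC2, 53.6% in cDC1, 0.572% in C1q-only macrophages, 0.0473% (1 barcode) in resident macrophages and 0.231% in fibroblasts, at median depths of 12760, 17723, 10338, 11911 and 15668 UMIs. Thinned shares of H2-Ob were 14.6% in cDC2, 41.1% in cDC1, 2.92% in C1q-only macrophages and 0.308% in fibroblasts, and those of H2-DMb2 were 32.2, 14.6, 1.83 and 0.462% (33.2, 80.7, 4.63 and 0.539% of H2-Ob and 53.7, 45.8, 3.95 and 0.693% of H2-DMb2 unthinned). Ciita was seen in 19.5% of cDC2, 14.9% of C1q-only and 5.34% of resident macrophages and in 0.924% of fibroblasts when thinned (42.9%, 24.7%, 10.6% and 1.93% unthinned).

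The 2 kinds of conventional dendritic cell had close levels of the chains and of most peptide editors, and H2-Ob and H2-DMb2 differed by over 2-fold. The class II sum was 1.13-fold lower in cDC1 than in cDC2, and Ciita stood at 49.3 against 53.5 CPM with an interval that included no difference. H2-Ob, the beta chain of H2-O, was 2.86-fold higher in cDC1 (410 UMIs, 114 CPM) than in cDC2 (117 UMIs, 39.6 CPM). H2-DMb2 went the other way, at 36.3 CPM in cDC1 and 97.6 in cDC2, while H2-DMb1 stood at 769 and 960 CPM. These were the 1 gene of 10 over 2-fold higher in cDC1 and the 1 over 2-fold lower, against 9.64% and 10.8% of 7615 genes, so the counts were at the background. H2-Oa was near equal, at 54.6 and 64.4 CPM. For each 100 UMIs of H2-DM there were 10.8 of H2-O in cDC1 (9.93 to 11.8), 5.61 in cDC2 (4.98 to 6.29), 0.981 in C1q-only macrophages and 0.240 in monocytes. Irf8, a factor of the cDC1 lineage, and Irf4, one of cDC2, had log2 ratios of 4.84 and -4.83, and the oxidase gene Cybb had -4.19. Of 9 class I genes, 4 were over 2-fold higher in cDC1 and none lower. Of 7 antigen processing genes, 5 were lower and 1 higher, with a median log2 ratio of -1.46. Of 5 tested costimulation genes 2 were lower and none higher. The 10 myeloid check genes had 6 lower and 2 higher, with a median log2 ratio of -1.15.

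Mature dendritic cells held much of the chains and had less H2-DM than conventional dendritic cells. Their H2-DM sum was 387 CPM, against 1854 in cDC2 and 1554 in cDC1, and macrophages had 343. The 19 barcodes had from 22 to 1479 UMIs of the class II sum each, with a median of 487, and cDC2 had from 37 to 2091 with a median of 724. The class II sum was lower in mature dendritic cells, with a log2 ratio of -0.46 (-0.49 to -0.43). H2-DMb1 had 23 UMIs over the 19 barcodes, 87.3 CPM against 960 in cDC2 and 769 in cDC1. Its log2 ratio to cDC2 was -3.46 (-4.12 to -2.87). H2-DMa was also lower, at 197 against 797 CPM (log2 ratio -2.01, -2.44 to -1.62). H2-DMb2, in contrast, was at 102 against 97.6 CPM. For each 100 UMIs of H2-DMb1 there were 117 of H2-DMb2 in mature dendritic cells (64.8 to 214) and 10.2 in cDC2. H2-DMb2 was seen in 7 of the 19 mature barcodes, with at most 8 UMIs in 1 barcode, and H2-DMb1 in 9. H2-DMb1 shares 24.0% of the 60-base windows in the last 500 bases of its transcripts with H2-DMb2, while those of H2-DMb2 were not found in H2-DMb1. The part of this shared stretch in the counts was not tested. Ciita was at 60.7 CPM from 16 UMIs against 53.5, a log2 ratio of 0.18 with an interval from -0.66 to 0.93, which leaves a wide range at this depth. H2-DMa, H2-DMb1 and H2-Ob were over 2-fold lower, 3 of 10 genes, and none were higher, while 24.2% of 7730 genes were lower and 15.2% higher. The interval of H2-Ob, from 4 UMIs in 1 barcode, included no difference.

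Class I and costimulation genes were mostly higher in the mature class. Of 9 class I genes 8 were over 2-fold higher than in cDC2, with a median log2 ratio of 1.32 beside -0.19 over all genes, and of 7 costimulation genes 5 were higher and 1 lower. Of 7 antigen processing genes 1 was higher and 1 lower, of 8 tested regulators 2 and 2, and of 2 tested turnover genes 0 and 1. Of 10 tested interferon-gamma genes 4 were higher and 2 lower, and of 10 myeloid check genes 0 were higher and 7 lower (median log2 ratio -1.55). The largest differences in the lists were in the chemokine Cxcl9 (log2 ratio 5.63), Irf4 (-4.51) and Irf8 (3.80). Irf8 was also higher and Irf4 lower in cDC1 than in cDC2, as given above. In that comparison 4 of 9 class I genes were higher and none lower. There, 6 of 10 myeloid check genes were lower and 2 higher, and 2 of 5 tested costimulation genes were lower and none higher. Named after their values were seen, the class I transactivator Nlrc5 stood at 186 CPM in the mature class against 19.7 in cDC2. Cd274, which encodes PD-L1, stood at 660 against 70.5. The ubiquitin ligase gene March1, whose product removes class II from the cell surface, stood at 7.59 against 45.4 CPM. In the mature class 3 UMIs would be 11.4 CPM. Beside these values, the macrophage list summed to 224 CPM in the mature class, against 10664 in C1q-only macrophages. The lipid list summed to 3681 CPM, with 3 of its 5 genes at 0. The part of other cells in these differences was not tested.

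**Figure D2:**
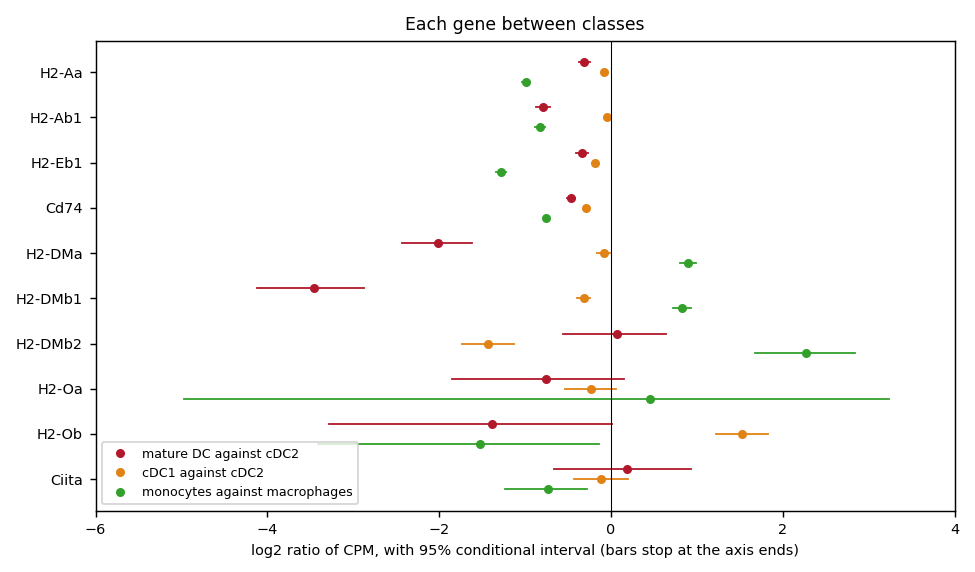
Points are log2 ratios of CPM for each gene, with 95% conditional intervals, for mature dendritic cells against cDC2 (red), cDC1 against cDC2 (orange) and monocytes against macrophages (green); bars stop at the axis ends. H2-DMb1 lies far to the left in mature dendritic cells at -3.46 with H2-DMb2 near 0, H2-Ob lies right in cDC1 at 1.52, and H2-DMa, H2-DMb1 and H2-DMb2 lie right of 0 in monocytes while the chains and Cd74 lie left.

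Macrophages spread over nearly the whole range of class II. In C1q-only macrophages the class II sum of a barcode had a median of 16641 CPM, with 59.3% of barcodes at 10000 CPM or more and 23.1% under 1000. In resident macrophages the median was 695 CPM, with 23.0% at 10000 or more and 53.1% under 1000. Lipid macrophages had a median of 2839 CPM. Conventional dendritic cells were narrow beside these, as 97.1% of cDC2 and 99.5% of cDC1 were at 10000 CPM or more. Mature dendritic cells were wider, with 14 of 19 barcodes (73.7%) at that level and a range from 1611 to 83595 CPM. The classes overlapped, since the highest resident macrophage reached 78128 CPM and the lowest cDC2 had 2916. Around the level of 10000 CPM, 269 macrophages lay between 8000 and 12500 CPM.

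**Figure D3:**
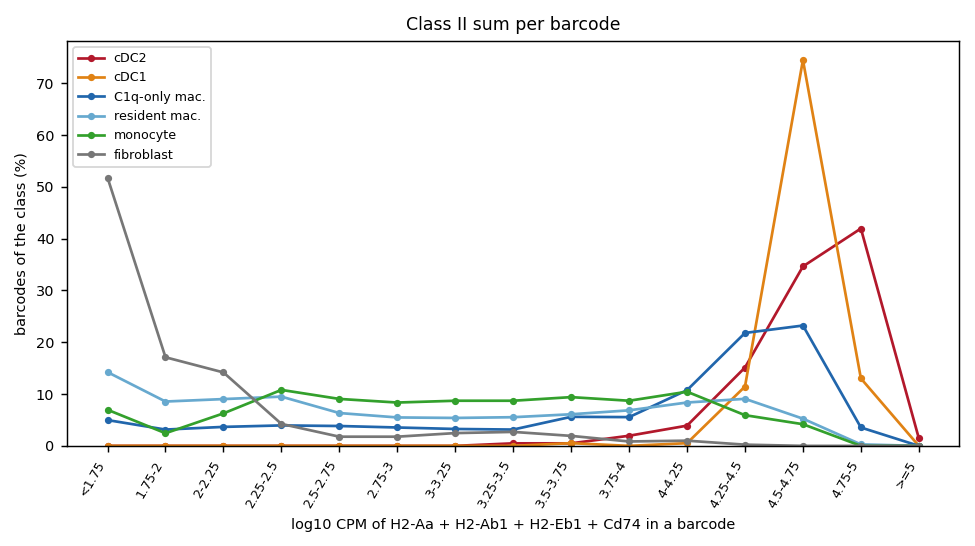
The lines give the percent of each class's barcodes (vertical axis) in bins of the log10 class II sum of a barcode (horizontal axis). The cDC1 and cDC2 lines peak at the right, C1q-only macrophages peak between 4.25 and 4.75 with a long left tail, resident macrophages spread over every bin below 4.75, and fibroblasts lie at the left.

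The class II sum was 2.96-fold lower in resident than in C1q-only macrophages (log2 ratio -1.57, -1.58 to -1.56). All 7 genes that reached 10 CPM were over 2-fold lower in resident macrophages, where 2.69% of 8032 genes were lower and 1.97% higher. H2-DMa had a log2 ratio of -1.15, H2-DMb1 of -1.62 and Ciita of -1.47 (-1.66 to -1.27). In lipid macrophages the class II sum was 3.10-fold lower than in C1q-only (log2 ratio -1.63), and 6 of 7 genes were over 2-fold lower beside 18.1% of 7964 genes lower and 5.78% higher. Ciita had 10 UMIs among 126 lipid macrophages, 3.68 against 33.4 CPM, and passed the level of 10 CPM only through C1q-only macrophages. H2-Oa and H2-Ob had no UMI in lipid macrophages, and 3 UMIs would be 1.10 CPM there.

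The rest of the presentation pathway was near level between resident and C1q-only macrophages, and in lipid macrophages its lists went in different directions. Between resident and C1q-only macrophages, none of 7 antigen processing genes, 7 tested regulators or 9 class I genes differed by over 2-fold, near the low share of all genes. One of 5 tested costimulation genes and 1 of 11 interferon-gamma genes were lower. The 10 myeloid check genes summed to 14244 and 14583 CPM. In resident macrophages 2 of them were over 2-fold lower and none higher, beside 2.69% of all genes lower. The largest differences in the lists were in the surface gene Cd52 (log2 ratio -2.15), Cd274 (-1.56) and the pore-forming gene Mpeg1 (173 against 346 CPM). In lipid macrophages 4 of 7 processing genes were over 2-fold higher and 1 lower than in C1q-only. Lower there stood 5 of 11 interferon-gamma genes with none higher and 2 of 5 tested costimulation genes with 1 higher. Of 9 class I genes 2 were lower and none higher, near the 18.1% of all genes. The largest differences were in March1 (-2.34), Nlrc5 (-2.22) and the costimulator Cd86 (-2.12). The reporter stood at different levels in these classes, with Gfp at 445 CPM in C1q-only, 219 in resident and 833 in lipid macrophages, and the sort had selected on it.

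Across single macrophages, Ciita, H2-DMa and H2-DMb1 followed the class II sum, while 9 regulators, the factors that Ciita binds among them, differed by 1.63-fold or less from end to end. Macrophages were divided at 300, 1000, 3000, 10000 and 30000 CPM of the class II sum, so the 4 genes of the sum are not described across these bins. Ciita had 18 UMIs in the 1153 barcodes below 300 CPM (1.18 CPM) and 464 in the 662 barcodes at 30000 or more (69.3 CPM), with 2.43, 5.80, 12.3 and 36.2 CPM between. That is a 58.5-fold difference from end to end (log2 ratio 5.87, 5.19 to 6.64). H2-DMa went from 52.7 to 499 CPM and H2-DMb1 from 28.0 to 473 CPM. The rarer H2-DMb2 had 20 UMIs in the lowest and 24 in the highest bin, a log2 ratio of 1.44 (0.53 to 2.38), and H2-Ob 38 and 51 UMIs, a log2 ratio of 1.61 (0.97 to 2.25). Within C1q-only macrophages the interval of H2-DMb2 included no difference. H2-Oa had 2 and 4 UMIs. The median depth was 12327 UMIs in the lowest and 9595 in the highest bin. Of the 9 regulators, Rfxap had a log2 ratio of -0.71, Nfyc of 0.28 and Creb1 of 0.20, and the intervals of Rfx5, Rfxank, Nfya, Nfyb, Irf8 and Spi1 included no difference.

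Ciita was also higher in the highest bin within C1q-only (39.5-fold) and within resident macrophages (66.8-fold), and the 126 lipid macrophages were not divided. From the lowest to the highest bin Ciita went from 1.80 to 71.1 CPM in C1q-only and from 0.981 to 65.5 CPM in resident macrophages. Within resident macrophages Rfxap was 1.70-fold lower in the highest bin, and Rfx5, with 2 UMIs there, 3.34-fold lower with an interval that included no difference. Resident macrophages with 30000 CPM or more of class II numbered 137. Their H2-DMa stood at 431 CPM and their H2-DMb1 at 349, against 518 and 505 in C1q-only macrophages of that bin. These resident macrophages carried the resident list at 2920 CPM, against 3410 in the resident macrophages under 300. Among all macrophages the resident list went from 2755 to 946 CPM over the bins. The lipid list went from 986 to 263 CPM, with 1735 in the bin from 3000 to 10000 CPM. The cDC2 gate list went from 46.3 to 200 CPM over the bins, beside 2315 CPM in cDC2, while the cDC1 list stood at 129 and 135 and the mature dendritic list at 6.78 and 4.03 CPM. The part of dendritic RNA or of mixed barcodes in these values was not tested. The C1q-only macrophages at 30000 CPM or more were 522 barcodes.

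**Figure D4:**
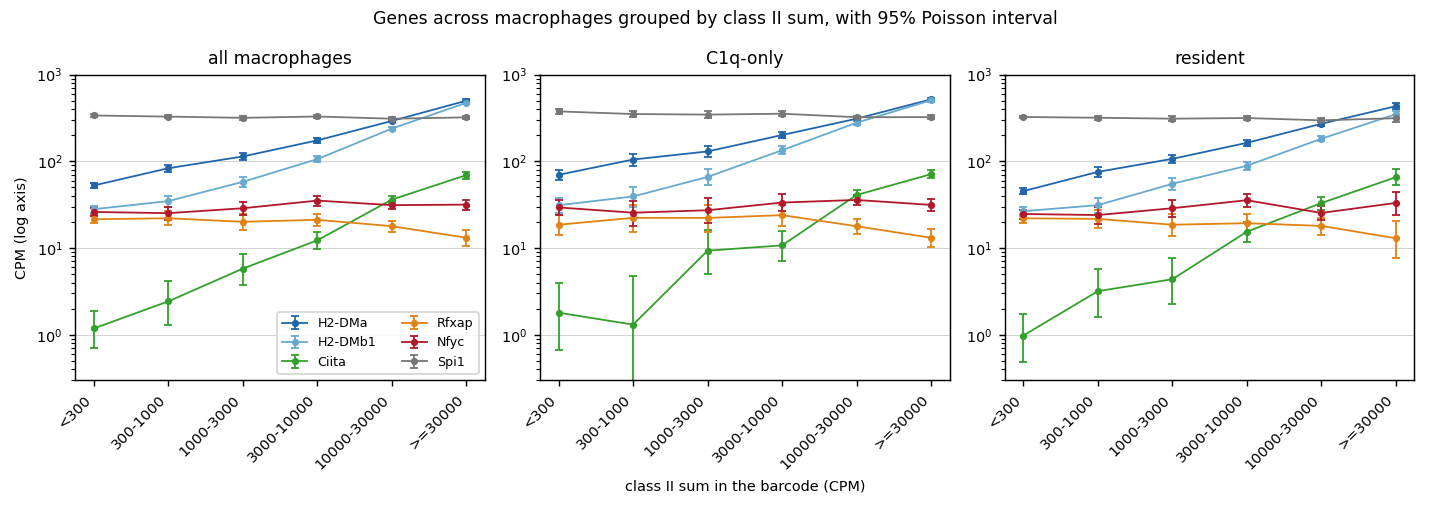
Each panel gives CPM (log axis) with 95% Poisson intervals of 6 genes in macrophages grouped by the class II sum of a barcode (horizontal axis, CPM), for all, C1q-only and resident macrophages. Ciita, H2-DMa and H2-DMb1 climb from left to right in every panel, with Ciita going from 1.18 to 69.3 CPM in all macrophages, while over the same range Spi1 goes from 337 to 321 CPM, Nfyc from 26.1 to 31.7 and Rfxap from 21.5 to 13.1.

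Over the 3992 macrophages, thinned to 5000 UMIs, the Spearman correlations among H2-Aa, H2-Ab1, H2-Eb1 and Cd74 lay between 0.915 and 0.928. These barcodes come from 1 library. H2-Aa correlated with H2-DMa at 0.564, H2-DMb1 at 0.584 and Ciita at 0.314. Ciita had the fewest UMIs of these genes, and the part of its sparse counts in the last value was not tested. In cDC2, H2-Aa correlated with H2-Ab1 at 0.826, H2-Oa at 0.379, H2-DMa at 0.191 and Ciita at 0.0831.

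Monocytes had less of the chains than the macrophage class as a whole, and more H2-DM. Their class II sum was 1.85-fold lower (log2 ratio -0.89, -0.91 to -0.87). The gap lay to C1q-only macrophages, at 18077 CPM, since monocytes with 5918 CPM were near the 6098 of resident and the 5827 of lipid macrophages. The median monocyte had 1545 CPM of class II and the median resident macrophage 695. H2-DMa stood at 357 against 192 CPM and H2-DMb1 at 265 against 149, so the H2-DM sum was 1.84-fold higher. That sum stood at 632 CPM in monocytes, 687 in the intermediate class, 533 in C1q-only, 258 in lipid and 209 in resident macrophages. Monocytes had 22.9 H2-DM UMIs for each 100 of the 3 chain genes (21.8 to 24.0), and C1q-only macrophages 5.63, resident 6.94, cDC2 7.01 and mature dendritic cells 2.01. H2-Eb1 was over 2-fold lower and H2-DMb2 over 2-fold higher, 1 gene each of 8, where 18.3% of 8087 genes were lower and 7.32% higher. H2-DMb2 reached 10 CPM only in monocytes. The largest differences in the lists were in Cd52 (log2 ratio 2.65), Cd274 (2.05) and Jak2 (1.83). Monocytes had Gfp at 1069 CPM.

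Non-myeloid classes held class II transcripts, and myeloid transcripts beside them. In fibroblasts the class II sum was 461 CPM, a log2 ratio of -4.57 to macrophages (-4.60 to -4.54). With mixed barcodes kept, the ratio was -3.98. All 7 genes at 10 CPM or more were lower by over 2-fold, with 18.8% of 9548 genes lower and 22.9% higher. H2-DMb1 and Ciita reached that level only in macrophages. As a percent of the macrophage level, the class II sum was 4.21% in fibroblasts and the 10 myeloid check genes 2.42%, with single myeloid genes between 1.83 and 4.95%. Corresponding values were 9.17 and 5.10% in Schwann cells, 15.0 and 11.6% in endothelial cells and 58.0 and 41.2% in muscle fibres. Satellite cells had 3.84 and 1.70%, and tenocytes 4.47 and 3.51%. In mural cells (12.98 and 13.34%) and erythroid cells (13.2 and 14.2%) the class II percent was the lower. In fibroblasts 119 of 1298 barcodes (9.17%) had 1000 CPM or more of class II and held 86.9% of the class II UMIs. Those barcodes had 2957 CPM of the myeloid check genes, against 169 in the other fibroblasts, and a median of 6377 UMIs against 16111. The median fibroblast had 53.4 CPM of class II, and the median mural, satellite and Schwann barcode had none. The part of free RNA and of mixed barcodes was not tested. Outside the class II genes, the largest fibroblast differences in the lists were in Dpp4 (log2 ratio 6.65), Fcgr3 (-5.77) and March1 (-5.49).

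**Figure D5:**
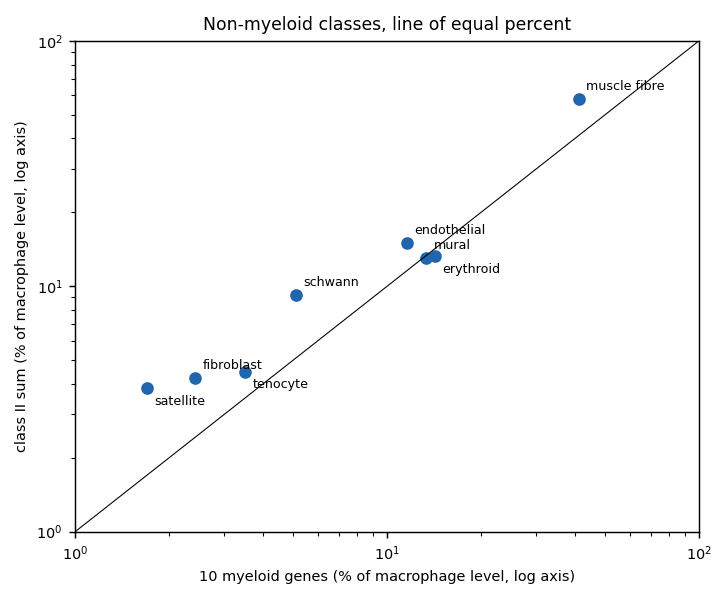
For 8 non-myeloid classes, the class II sum (vertical, log axis) is plotted against the sum of 10 myeloid genes (horizontal, log axis), both as a percent of the macrophage level, with a line of equal percent. Fibroblasts lie at 2.42 and 4.21% and muscle fibres at 41.2 and 58.0%, mural and erythroid cells lie just below the line, and the order of the 2 measures differs among endothelial, mural and erythroid cells.

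The genes whose level across the 16 classes was most like the mean of the 4 class II genes were found among 6849 genes at 50 CPM or more in a class. Etv3, a transcriptional repressor of the ETS family, came first with a Pearson r of 0.966, with 485 CPM in cDC2, 232 in C1q-only macrophages and 21.6 in fibroblasts. Slamf7 (0.945), Syngr2 (0.918), C130026I21Rik (0.918), Gm46224 (0.913), Fgd2 (0.910), Aph1c (0.909) and the chemokine receptor Ccr2 (0.904) followed. Among the class II genes, H2-DMa and H2-DMb1 had r of 0.973 and 0.976, Ciita 0.840 and H2-Oa 0.625. The classes come from 1 library, and the part of free RNA in these correlations was not tested.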

How the data were processed

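The authors made the deposited counts, raw UMIs per gene and barcode, with Cell Ranger (8.0.1 in the matrix header, 7.1.0 in the submitters' notes), before their removal of ambient RNA and doublets. Barcodes had at least 5000 UMIs, more than 200 genes and under 10% mitochondrial counts. Each marker list was summed as CPM and divided by the median of its highest barcodes, and the highest score named a barcode if it had 5 UMIs over 3 markers. Barcodes whose second score passed 0.5 of the first were set aside as mixed. The pair of monocyte and macrophage was the exception and formed the intermediate class. Macrophage subsets needed a score of 0.25 and 3 UMIs over 2 markers. No column was left unassigned, and barcode names shared with the GFP- library numbered 84 among the deep barcodes. The members and lists were chosen with earlier results of these data known. All 10 members were named, with the 3 listed genes of largest absolute log2 ratio in each comparison at 20 CPM or more, and the 8 most alike genes. Others are said to have been chosen after their values were seen. Scrublet (scanpy 1.11.5) served an alternative. Steps were tested on simulated data. In GENCODE M39, H2-Aa and H2-Eb1 overlap on opposite strands, H2-DMa overlaps Brd2 on the opposite strand and the lncRNA Gm50336 on its own. Python 3.11.15, numpy 2.4.6, scipy 1.17.1 and pandas 2.3.3 were used.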

Additional observations from a re-analysis of the deposited data

How the results depend on the processing

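No replicate was available, so a value is called moved where an alternative took it outside its counting interval. Of 60 recomputed log2 ratios 30 moved, and none of the 5 class II sums changed sign. For cDC2 against macrophages, the main value of 2.14 became 2.37 with at least 10000 UMIs, 2.10 under 5% mitochondrial counts, 2.19 with the stricter gate, 2.04 with mixed barcodes kept, 2.13 without doublets, 2.07 as a mean over barcodes and 2.19 with members left out of the total. For mature dendritic cells against cDC2 (-0.46) the values were -0.57 with the stricter gate, -0.39 with mixed barcodes kept and -0.62 as a mean over barcodes. For resident macrophages (-1.57) they were -1.56 with at least 10000 UMIs, -1.49 under 5% mitochondrial counts, -1.60 without doublets and -1.59 with members left out. For lipid macrophages (-1.63) they were -1.43 with at least 10000 UMIs, -1.70 under 5% mitochondrial counts, -1.67 with the stricter gate, -1.60 with mixed barcodes kept and -1.74 as a mean over barcodes. For fibroblasts (-4.57) they were -4.62 with at least 10000 UMIs, -4.62 under 5% mitochondrial counts, -3.98 with mixed barcodes kept, -4.75 without doublets and -4.66 as a mean over barcodes. The 3 added alternatives were chosen after seeing the data. Letting only passed gates compete gave 2.05, -1.50, -1.80 and -4.62 for cDC2, resident, lipid and fibroblasts. A subset score of 0.1 gave -1.73 and -1.78 for resident and lipid macrophages. It also changed the classes, with 855 C1q-only macrophages instead of 1748 and 2916 resident instead of 2115. Lipid macrophages then numbered 189 instead of 126, and those with both lists 32 instead of 3. Leaving out barcode names shared with the GFP- library moved none. Ciita in mature dendritic cells lay between -0.21 and 0.33 over all alternatives, always within its interval. The causes were not tested. No paired analysis was possible because each group holds 1 library.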

Other observations

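H2-Eb2, a second beta chain gene of the I-E locus that was not among the 10 genes and was chosen after its values were seen, had 73 UMIs in the 19 mature dendritic barcodes, 277 CPM (217 to 348). It stood at 10.2 CPM in cDC2, 5.82 in cDC1, 3.19 in C1q-only and 1.35 in resident macrophages. In the mature class 14 of 19 barcodes had a UMI of H2-Eb2, with at most 15 in 1 barcode, and in cDC2 17 of 205 had one. None of the 60-base windows in the last 500 bases of H2-Eb1 transcripts was found in H2-Eb2, nor the reverse.

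The 4 plasmacytoid barcodes, too few for a level of their own, had 50 UMIs of H2-DMa and 12 of H2-DMb1 beside 56 UMIs of the 4 class II genes together. The 1048 leukocyte barcodes that failed the gate for which they scored highest had a class II sum of 15950 CPM and held 17.1% of the class II UMIs of the deep barcodes. When only passed gates competed, an alternative chosen after seeing the data, 173 leukocyte barcodes were left without a class.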
